A study of Mus musculus with 15 samples.

Results

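Mouse embryonic fibroblasts with intact Hdac1 that had received tamoxifen were compared with fibroblasts carrying floxed Hdac1 that had received ethanol, across all genes measured. The 6 arrays of this comparison were chosen by the titles of the samples, 3 for each group, out of 15 arrays in the series. The study asked what the loss of Hdac1, of Hdac2 or of both does to gene expression in primary fibroblasts, and these +/+ cells are its only cells without the floxed alleles. All cells were primary and male, and RNA was measured on Affymetrix Mouse 430v2 arrays.

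The Hdac1 +/+ cells (+/+ cells below) were given tamoxifen at 200 nM. Which viruses they carried, and from which embryos or strain they came, the sources used here do not give. The floxed cells had been infected with retroviruses for Cre-ERT2, whose recombinase becomes active with tamoxifen, and for a micro-RNA. In Hdac1 KO cells the micro-RNA was scrambled and tamoxifen was given, in Hdac2 Kd cells it targeted Hdac2 and ethanol was given, and in combined KO/Kd cells it targeted Hdac2 and tamoxifen was given. The floxed control (control cells below) carried the scrambled micro-RNA and received ethanol. The labels give +/+ and control cells the same wild-type genotype. Between these groups, effects of tamoxifen, of Cre activity, of the viruses and of the origin of the cells cannot be told apart. No label ties the 3 arrays of a group to 3 cultures or embryos. The p-values therefore measure only how far these samples spread, and that spread may be technical.

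Hdac1 encodes a histone deacetylase, an enzyme that removes acetyl groups from histones and works in large co-repressor complexes. Tamoxifen is a ligand of estrogen receptors, and it is used with Cre-ERT2 to move the recombinase into the nucleus. Embryonic fibroblasts are a mixed mesenchymal population that keeps a memory of its body position, mainly through Hox genes and other regional transcription factors. In bulk RNA, fewer cells of a type and less RNA per cell cannot be told apart.

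Values are intensities, fold changes are on the scale log2(intensity + 16), and a gene was called when limma's Benjamini-Hochberg adjusted p was under 0.05 over 13382 genes tested. Array medians were 25.7 to 27.3 in +/+ cells and 24.1 to 25.1 in control cells, so values in this range are near the dim end of the scale, and no detection calls were used. Mean intensities were 955 to 1003 in +/+ cells and 896 to 933 in control cells. Hdac1 itself had intensities of 4806, 4419 and 4191 in +/+ cells, against 3499, 3498 and 3673 in control cells. The +/+ arrays lay above the control arrays without overlap, and the difference did not pass the test across all groups (log2 fold change 0.33 ± 0.15 SE, adjusted p = 0.11). Hdac1 KO arrays read 155, 144 and 183, far below both. The Y-linked genes Kdm5d, Eif2s3y and Uty were measured in every array, at 624 to 776, 1273 to 1424 and 90.7 to 114 in +/+ cells, and Xist was at 16.2 to 18.7 in +/+ cells and 14.7 to 15.6 in control cells. The summed intensity of the fibroblast markers was 257400 to 270200 in +/+ cells and 244700 to 253300 in control cells, with Vim and Col1a2 the brightest. Fap, the fibroblast activation protein, was dim, at 11.5 to 14.2 in +/+ cells and 11.9 to 14.5 in control cells.

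Of the 13382 genes tested, 3808 differed between +/+ and control cells (28.5%). Of these 2881 were higher in +/+ cells (21.5%) and 927 lower (6.93%). Most differences were small: 175 genes were higher by 2-fold or more (1.31%) and 103 lower by as much (0.77%). The median log2 fold change over all genes was 0.080, and the +/+ arrays had the higher mean and median intensities. Of the calls 75.7% were higher in +/+ cells as deposited, 49.2% after quantile normalization (1943 higher, 2010 lower) and 43.3% after centring each array on its median (1640 higher, 2145 lower). The median over all genes was -0.043 after centring, and small differences below should be read relative to that shift. At an unadjusted p under 0.05 there were 5183 genes, and in 6383 genes (47.7%) the 3 +/+ arrays did not overlap the 3 control arrays.

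**Figure D1:**
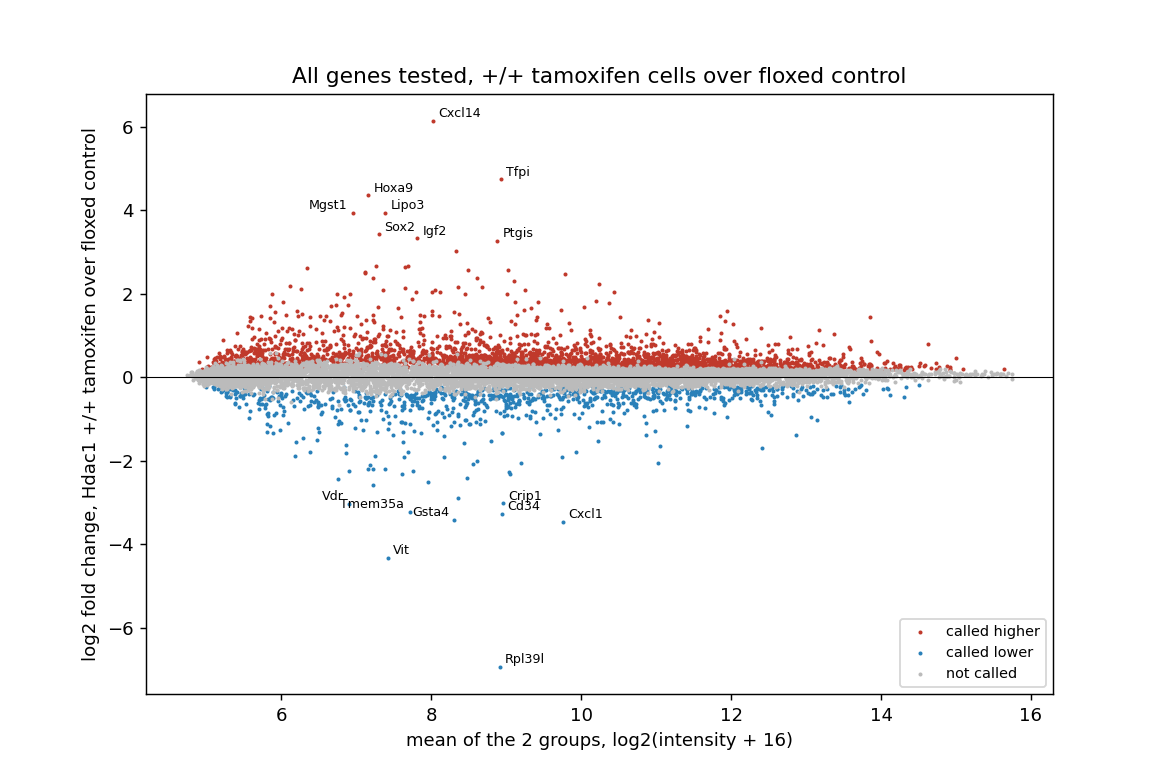
Log2 fold change of +/+ cells over control cells (vertical axis) against the mean of both groups as log2(intensity + 16) (horizontal axis), 1 point per gene tested. Genes called higher are red and genes called lower blue. Cxcl14 at 6.14 and Rpl39l at -6.94 lie farthest from 0, while most genes lie close to it.

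A small set of genes was close to silent in one of the groups and bright in the other. Cxcl14, which encodes a chemokine of epithelia and fibroblasts, had intensities of 2314, 2084 and 2077 in +/+ cells, against 14.4, 16.7 and 13.3 in control cells (log2 fold change 6.14 ± 0.10 SE, adjusted p = 5.52e-16). Its second probe set rose by 4.36. Tfpi, the inhibitor of the tissue factor pathway of coagulation, read 2404, 2491 and 2550.3 in +/+ cells, against 79.8, 93.8 and 61.5 in control cells (log2 fold change 4.74 ± 0.11 SE, adjusted p = 3.25e-14), and its 3 further probe sets rose by 4.11 to 4.93. In both genes every +/+ array was far above every control array. Sox2, a transcription factor of pluripotent and neural progenitor cells, was at 606, 472 and 429 in +/+ cells, against 30.5, 30.8 and 33.7 in control cells (log2 fold change 3.43 ± 0.10 SE, adjusted p = 1.24e-12). Lipo3, a member of a lipase family, averaged 639.7 ± 79.7 in +/+ cells and 26.8 ± 6.14 in control cells (SD, n = 3 each; log2 fold change 3.94). Mgst1, a microsomal glutathione transferase, averaged 472 ± 56.2 in +/+ cells and 15.6 ± 0.504 in control cells (log2 fold change 3.94), and Ptgis, the prostacyclin synthase, 1438 ± 31.9 in +/+ cells and 136 ± 17.8 in control cells (log2 fold change 3.26).

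Further genes among the 15 highest encode membrane and signalling proteins. Plekhb2 rose by 3.02 and Cd59a, an inhibitor of the complement attack complex, by 2.67. Gfra1, a co-receptor for GDNF, rose by 2.66 with intensities of 381, 338 and 395 in +/+ cells, against 48.7, 43.3 and 43.8 in control cells. Ripk3, a kinase of necroptotic cell death, was at 1326, 1297 and 1131 in +/+ cells, against 220.4, 168 and 202 in control cells (log2 fold change 2.58 ± 0.13 SE, adjusted p = 4.04e-10). Zfp979, a zinc finger gene, rose by 2.62 and averaged 185 ± 9.11 in +/+ cells and 16.8 ± 2.89 in control cells. None of these genes overlapped between the groups, a condition of the rule by which they were chosen.

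Lower in +/+ cells by the widest margin was Rpl39l, a paralogue of the ribosomal protein gene Rpl39. It had intensities of 28.9, 23.6 and 30.2 in +/+ cells, against 5041, 5429.6 and 5485 in control cells (log2 fold change -6.94 ± 0.082 SE, adjusted p = 3.38e-18). Vit, which encodes the matrix protein vitrin, read 17.2, 24 and 25.6 in +/+ cells, against 796, 774 and 670.4 in control cells (log2 fold change -4.32 ± 0.11 SE, adjusted p = 7.83e-14). Both genes were near the array median in +/+ cells and bright in all control arrays. Cd34, a surface glycoprotein of progenitor and mesenchymal cells, was at 141, 174 and 117 in +/+ cells, against 1572, 1495 and 1448 in control cells (log2 fold change -3.26). Crip1, a small LIM protein, averaged 159 ± 12.7 in +/+ cells and 1405 ± 150.5 in control cells (log2 fold change -3.02), and the water channel Aqp1 averaged 104 ± 15.8 in +/+ cells and 872 ± 79.4 in control cells (log2 fold change -2.89). Epas1, the hypoxia-inducible factor HIF-2 alpha, was at 33.9, 34 and 24.1 in +/+ cells, against 255, 243 and 205 in control cells (log2 fold change -2.43). Its dim second probe set read 17.8 ± 3.00 in +/+ cells and 17.5 ± 1.44 in control cells and was not called (log2 fold change 0.010, adjusted p = 0.951).

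The nuclear receptor Vdr, which binds vitamin D, fell by 3.02 on the log2 scale (34.6, 19.2 and 25.1 in +/+ cells, against 325, 344 and 305 in control cells). Transcription factors were also among the lowest genes: Ebf1, a regulator of adipocyte and B cell fates, averaged 139 ± 28.2 in +/+ cells and 805 ± 26.4 in control cells (log2 fold change -2.42), and Foxa1, a pioneer factor of endodermal epithelia, 71.5 ± 13.4 in +/+ cells and 423 ± 69.3 in control cells (log2 fold change -2.33). Tspan17, a tetraspanin, was at -2.58 and Tmem35a at -3.22 on the log2 scale. For Tmem35a the control arrays read 522, 729.9 and 610.1, but values over all floxed arrays spanned 32 to 729.9, so that the +/+ arrays lay inside that span.

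The 4 floxed groups bear on how far such genes set the +/+ cells apart from the whole floxed line. In 565 genes (4.22%) all 3 +/+ arrays lay above all 12 floxed arrays, and in 551 (4.12%) below all of them. Without +/+ replicate 3 the first count was 963. A gap of at least 1 on the log2 scale was left in 17 (0.127%) and 24 genes (0.179%). The widest gaps above belonged to Hoxa9 (3.61), Sox2 (2.65), Cxcl14 (2.41), Zfp979 (2.20), Lipo3 (1.88), Mpzl2 (1.72), Slc16a3 (1.71) and Hoxa10 (1.44). Mpzl2, an adhesion protein of epithelia, averaged 541 ± 47.8 in +/+ cells and 121 ± 22.3 in control cells, and Slc16a3, the lactate exporter MCT4, 678 ± 73.8 in +/+ cells and 139 ± 23.8 in control cells. The widest gaps below belonged to Rpl39l (-6.18), Vit (-2.75), Crip1 (-2.35), Cd34 (-2.23), Epas1 (-2.15), Aqp1 (-2.13), Tspan17 (-1.93) and Vdr (-1.76). Rpl39l spanned 3339 to 6236 over the 12 floxed arrays, and all 3 +/+ arrays were far below that range. These gaps are descriptions, since they share the +/+ arrays with the comparison above.

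Other strongly different genes did not separate the +/+ cells from the floxed line. Igf2 spanned 44.3 to 21069 over the floxed arrays, with 21069, 17009 and 19176 in KO/Kd cells. Mgst1 spanned 15 to 4545 and Sfrp1, a secreted Wnt antagonist that rose by 2.65, spanned 48.7 to 2448. In each of these genes the 3 +/+ arrays lay inside the floxed range.

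**Figure D2:**
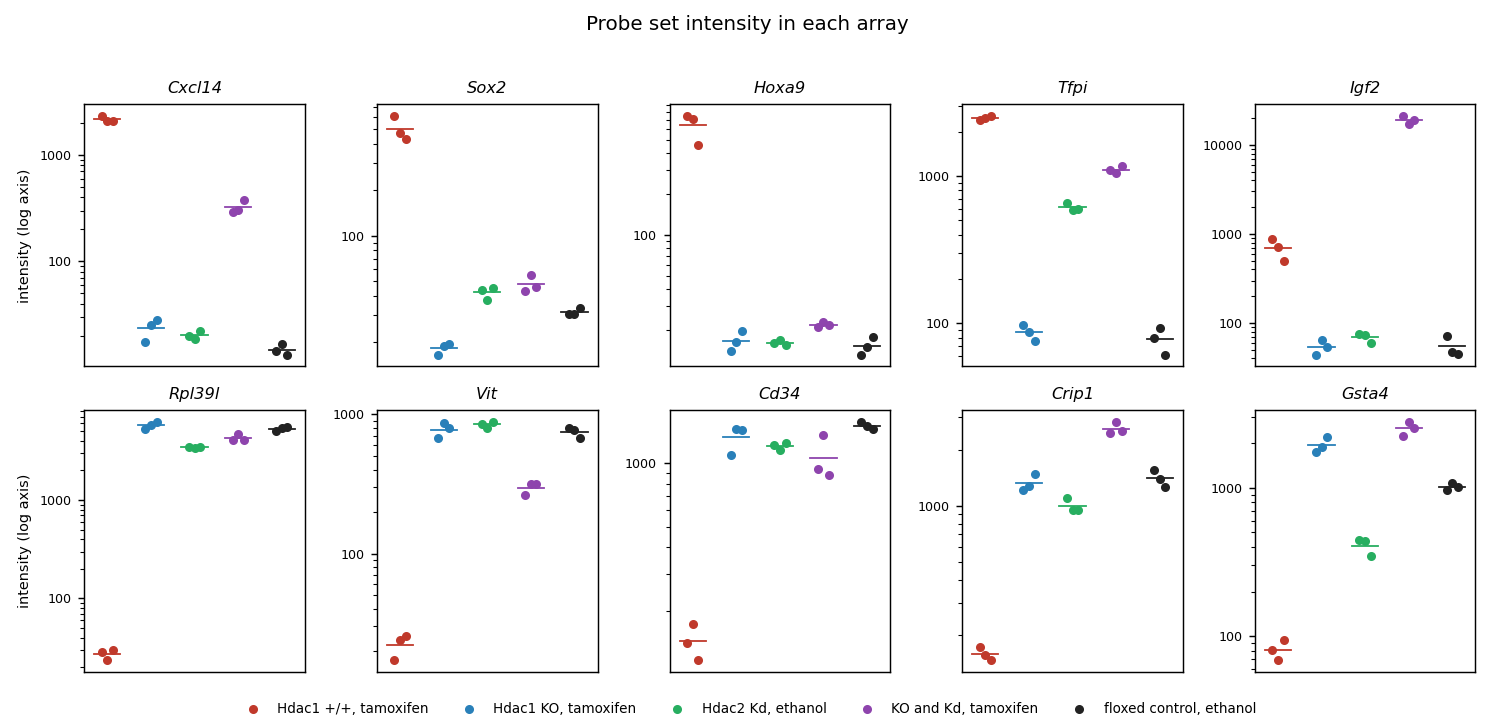
Intensity (log axis) of 10 genes in each of the 15 arrays, with a line at the mean of each group. Cxcl14, Sox2, Hoxa9 and Tfpi are highest in the 3 +/+ arrays, Igf2 is highest in KO/Kd cells, and Rpl39l, Vit, Cd34, Crip1 and Gsta4 are lowest in the 3 +/+ arrays.

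Hox genes lie in clusters, and those at the 5′ end of a cluster mark more posterior and distal body positions in vertebrate embryos. Of 39 Hox genes on the list 18 passed the filter on dim values, 6 of them with fewer than 3 of the 12 floxed arrays above it. Of the 18 genes 7 were called higher in +/+ cells and 2 lower (50% called, against 28.5% over all genes). Hoxa9, Hoxa10, Hoxa11, Hoxc8 and Hoxc10 passed only through the 3 +/+ arrays. They had to differ in order to be tested, so their values are given as a description without p-values. Hoxa9 was at 746, 708 and 459 in +/+ cells, against 13.2, 15 and 17.8 in control cells (log2 fold change 4.35). Hoxa10 was at 136, 99.5 and 71.1 in +/+ cells, against 13, 10.8 and 15.2 in control cells (log2 fold change 1.99), and Hoxa11 at 32.1, 36.8 and 30.5 in +/+ cells, against 14, 16.1 and 17.5 in control cells (log2 fold change 0.62). The +/+ arrays of these genes, neighbours toward the 5′ end of the Hoxa cluster, stood above all 12 floxed arrays, which read 23 at most. Further genes toward the 5′ ends did not pass the filter: Hoxa13, Hoxc11, Hoxc12, Hoxc13, Hoxd9, Hoxd10, Hoxd11, Hoxd12 and Hoxd13. Hoxc9 did not pass it either. Hoxc10 read 88.5, 60.6 and 43 in +/+ cells, against 12.8, 12.8 and 12.7 in control cells (log2 fold change 1.44), and Hoxc8, Hoxb4 and Hoxd8 completed the higher genes. Over all genes tested 216 had fewer than 3 floxed arrays above the filter, and 25 of these were among the higher calls.

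Genes toward the other end of the Hoxa cluster did not share this pattern. Hoxa5 averaged 1256 ± 30.1 in +/+ cells and 1291 ± 98.2 in control cells (adjusted p = 0.801) and Hoxa3 1006 ± 43.3 in +/+ cells and 995 ± 65.2 in control cells (adjusted p = 0.9). Hoxa7 (log2 fold change -0.45) and Hoxa4 (-0.56) were the lower genes. Hoxa10 and Hoxa9 each had a second, dim probe set, with log2 fold changes of 0.13 and 0.27. After quantile normalization or centring the Hox counts were 6 higher and 3 lower. The higher counts rest in part on genes that passed only through the +/+ arrays, so they are no result about Hox genes as a set. Genes measured above the filter on the 3 +/+ arrays alone leave the test, or fall back on another probe set, when 1 of these arrays is left out: 3, 2 and 3 Hox genes were then called higher without +/+ replicate 1, 2 and 3. The call of Hoxa10 ended without +/+ replicate 1 in this way (0.16, adjusted p = 0.131).

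**Figure D3:**
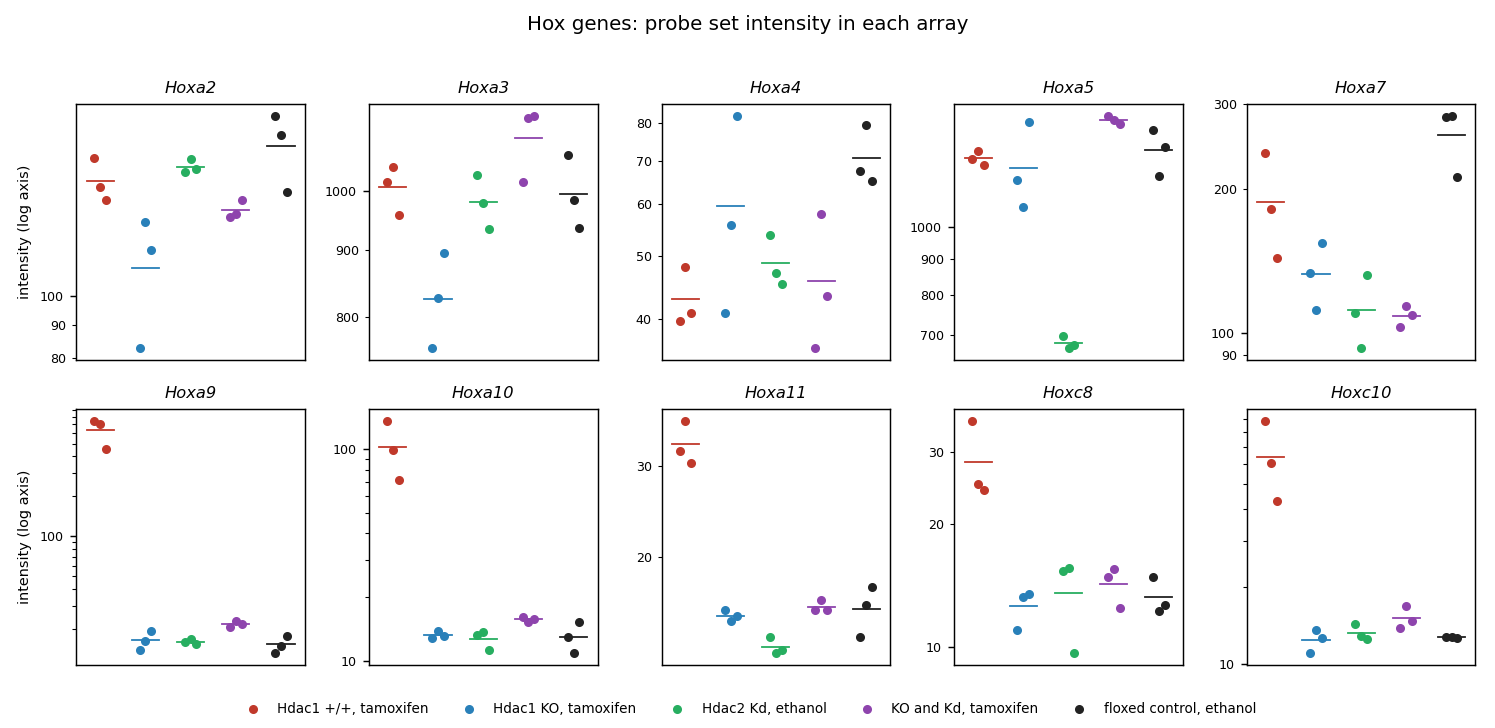
Intensity (log axis) of 10 Hox genes in each of the 15 arrays, with a line at the mean of each group. Hoxa9, Hoxa10, Hoxa11, Hoxc8 and Hoxc10 are highest in the 3 +/+ arrays, whereas Hoxa2, Hoxa3 and Hoxa5 overlap between +/+ and control cells.

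Other transcription factors of regional identity differed in both directions: 19 of 46 tested were higher in +/+ cells and 9 lower (14 and 11 after centring). The share called was 60.9%, against 28.5% over all genes. Of the higher genes Hand2 and Pitx1 passed the filter only through the +/+ arrays. Foxs1, a forkhead factor of perivascular cells, averaged 425 ± 46.2 in +/+ cells and 135 ± 39.9 in control cells (log2 fold change 1.58), and Irx1, a homeodomain factor, 87 ± 7.73 in +/+ cells and 29.8 ± 4.38 in control cells (1.17). Lhx9, a LIM homeodomain factor of gonad and limb, was at 231, 334 and 257 in +/+ cells, against 1152, 1216 and 1134 in control cells (log2 fold change -2.04 ± 0.11 SE, adjusted p = 8.61e-10). Foxf1, a forkhead factor of visceral mesenchyme, fell by 1.15 on the log2 scale. The +/+ arrays of Lhx9 and Foxf1 were below all 12 floxed arrays, while those of Foxs1 and Irx1 lay within their range.

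Imprinted genes, which are read from a single parental allele and include many regulators of fetal growth, were higher in 16 of 30 cases and lower in 1 (median 0.20; 13 and 2 after centring). Over all genes 21.5% were higher, and 75.7% of the calls were. Against the mean of all 4 floxed groups 11 were higher and 4 lower. Igf2, the fetal growth factor, had intensities of 886, 723 and 495 in +/+ cells, against 71.2, 47.5 and 45 in control cells (log2 fold change 3.33 ± 0.18 SE, adjusted p = 1.27e-09). Its second probe set was dim in both groups, at 20.4 ± 0.820 in +/+ cells and 17.6 ± 0.949 in control cells, and was not called. Nnat, a small membrane protein of developing brain, read 148, 174 and 114 in +/+ cells, against 23.1, 19.8 and 18.9 in control cells (log2 fold change 2.12 ± 0.12 SE, adjusted p = 3.09e-09). Mest averaged 1462 ± 127 in +/+ cells and 468 ± 88 in control cells (log2 fold change 1.62), and Cdkn1c, which encodes the cell cycle inhibitor p57, averaged 441 ± 39.1 in +/+ cells and 149 ± 15.6 in control cells (log2 fold change 1.47). Igf2, Nnat, Mest and Cdkn1c were higher in each +/+ array than in each control array, but of these 4 Nnat alone lay above all floxed arrays.

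The insulin-like growth factor genes moved both ways, with 4 of 15 higher and 4 lower (53.3% called, against 28.5% over all genes). Pappa, a protease that cleaves IGF-binding proteins, rose by 1.45. Igfbp6, a binding protein with a preference for IGF2, had intensities of 97.9, 83.3 and 81.7 in +/+ cells, against 553, 614 and 559 in control cells (log2 fold change -2.52 ± 0.23 SE, adjusted p = 6.62e-07), and Htra1, a secreted serine protease, fell by 0.86. The 3 +/+ arrays of both lower genes lay below all 12 floxed arrays, with log2 gaps of -0.19 for Igfbp6 and -0.81 for Htra1.

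Genes lower in +/+ cells were unevenly spread over the chromosomes, a count that was made after the values had been seen. Chromosomes were taken from the RefSeq table through Entrez IDs for 13313 genes. Chromosome 15 held 540 genes tested (4.04%) and 235 of the 927 lower calls (25.4%): 43.5% of its genes were lower and 3.33% higher. Chromosome 8 had 127 of 725 genes lower (17.5%) and 60 higher (8.28%). On each of the other 18 chromosomes 2.84% to 6.72% of genes were lower. Chromosome 4 (287 of 808 genes, 35.5%) and the X chromosome (168 of 428, 39.3%) had the largest shares of higher genes. Kd and KO/Kd arrays were shifted the same way on both, as given below.

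The shift on chromosome 15 was small per gene and shared by most genes along its length. Among 323 genes with a mean intensity of at least 200 the median log2 fold change was -0.31, against 0.11 over 8129 such genes on all chromosomes, and 88.2% were below 0. In 4 consecutive blocks of chromosome 15, cut by gene order, the medians were -0.31, -0.33, -0.30 and -0.32. On chromosome 8 the median of such genes was -0.11 and 72.3% were below 0. The other 18 chromosomes had medians of 0.068 to 0.22.

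The same shift appeared in each +/+ array and in no floxed array to the same extent. Each array was set against the control mean of each gene and then against the median over all chromosomes. Control arrays therefore lie near 0 by construction. Chromosome 15 was shifted by -0.44, -0.43 and -0.41 in the 3 +/+ arrays. Its mean in control arrays was -0.0013 ± 0.0025 (SD, n = 3). Kd arrays lay at -0.10 to -0.12, KO/Kd arrays at -0.081 to -0.13, and KO arrays at -0.032 or above. For chromosome 8 the +/+ mean was -0.21 ± 0.0039 and the control mean -0.0017 ± 0.0030. On chromosome 4 the +/+ arrays lay at 0.097 to 0.111, Kd arrays at 0.072 to 0.082 and KO/Kd arrays at 0.085 to 0.106. On the X chromosome these ranges were 0.102 to 0.132, 0.054 to 0.081 and 0.068 to 0.076. The exact two-sided permutation test over 3 against 3 arrays gave p = 0.1 for chromosomes 15 and 8, the smallest value it can give. Both chromosomes were picked from these same data, so the test adds no independent support. The median log2 difference of bright chromosome 15 genes was -0.40 against KO cells, -0.27 against Kd cells and -0.40 against KO/Kd cells. These comparisons share the +/+ arrays. The count of lower genes on chromosome 15 was 200 to 316 over all alternative settings. DNA copy number was not measured here, and a cause of the shift was not tested.

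**Figure D4:**
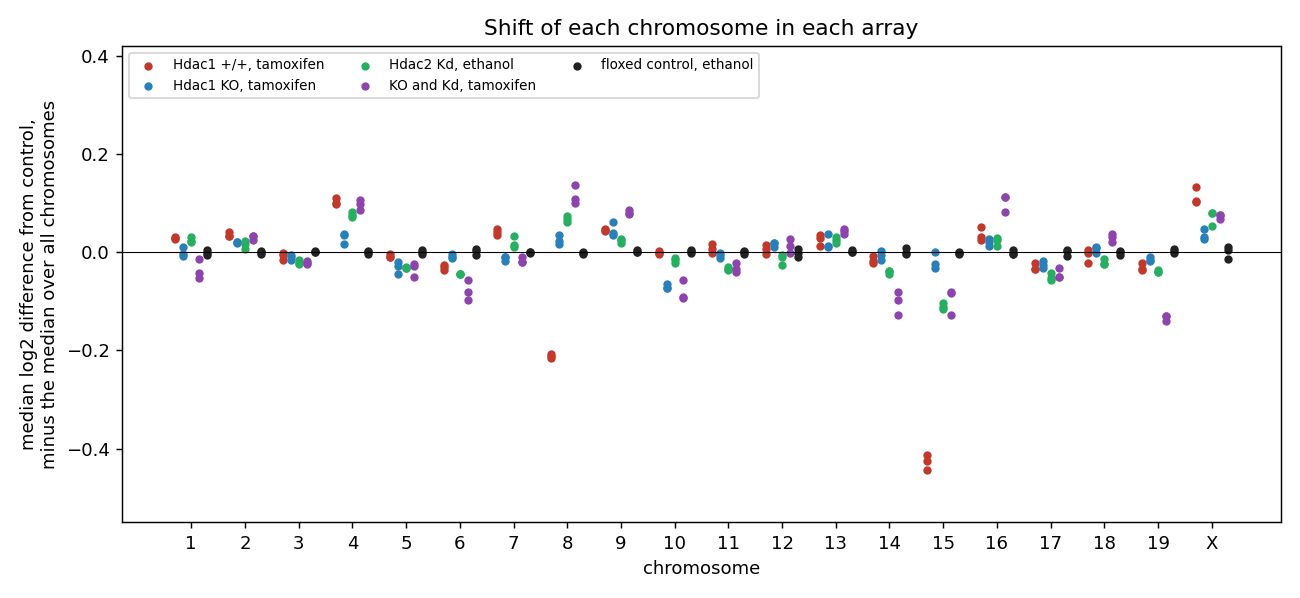
Median log2 difference from the control mean for the genes of each chromosome, minus the median over all chromosomes (vertical axis), for each of the 15 arrays. The 3 +/+ arrays lie at -0.41 to -0.44 on chromosome 15 and near -0.21 on chromosome 8, and on most other chromosomes all arrays lie near 0.

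Without the genes of chromosome 15 the calls were 2863 higher and 692 lower. Of the lower genes named here, Vdr, Igfbp6, Hdac7, Hdac10, Racgap1, Cdh6, C1qtnf3 and C1qtnf6 lie on chromosome 15. Hoxc10, Nr4a1 and Adamts12 lie on it too and were higher. The list of DNA replication genes was touched most by chromosome 8, as given below.

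Limma called 0 of the 4 class I deacetylases, and at an unadjusted p under 0.05 there was 1, Hdac1. Hdac2, the close relative of Hdac1, averaged 7556 ± 120.1 in +/+ cells and 7051 ± 449 in control cells (log2 fold change 0.10, adjusted p = 0.346). Hdac3, of the NCoR complex, averaged 1410.4 ± 12.7 in +/+ cells and 1316 ± 73.8 in control cells (adjusted p = 0.322), and Hdac8 87.8 ± 3.25 in +/+ cells and 83 ± 16.4 in control cells (adjusted p = 0.609). When only the 6 compared arrays entered limma's model, Hdac1 was called higher (adjusted p = 0.00676). Among the other deacetylases Hdac5 (0.40) and Hdac6 (0.29) were higher, while Hdac7 (-0.78) and Hdac10 (-0.66) were lower and Hdac4, Hdac9 and Hdac11 were not called. Of 29 subunits of deacetylase complexes 3 were higher and 3 lower, with Sap30 of the Sin3 complex at -0.52 and Rcor1 of the CoREST complex at 0.29; Sap30 and 1 further lower subunit lie on chromosome 8. That is 20.7% called, against 28.5% over all genes. The counts were 0 higher and 5 lower after centring, 0 higher without +/+ replicate 1 and 1 without control replicate 3.

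Hdac1 lies on chromosome 4. Of the 100 genes made up of the nearest 50 tested on each side of it, 25 were higher and 2 lower, which is 27% called, against 39% over all of chromosome 4 and 28.5% over all genes.

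Differences in genes of cell division were small. Of 47 genes of DNA replication 12 were lower and 0 higher (median -0.19). The share called was 25.5%, against 28.5% called and 6.93% lower over all genes. Of these 12 lower genes 6 lie on chromosome 8. The 3 largest differences were all among those 6. Gins3, of the replicative helicase, was at 174, 160.4 and 165 in +/+ cells, against 275, 248 and 261 in control cells (log2 fold change -0.60 ± 0.12 SE, adjusted p = 0.00101). Mcm5, of the same helicase, averaged 9983 ± 593 in +/+ cells and 14938 ± 183 in control cells (log2 fold change -0.58), and Cdt1, which loads it onto origins, 3103 ± 149 in +/+ cells and 4623 ± 124 in control cells (-0.57). Mcm2, another helicase subunit, fell by 0.38. The count of lower replication genes was 29 after quantile normalization and 35 after centring, with 0 higher under both, and 25 when only the 6 compared arrays were fitted. It was 7 without +/+ replicate 3 and 7 without control replicate 2. Against the mean of all 4 floxed groups it turned round, with 29 higher and 2 lower.

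Of 48 genes of mitosis 1 was higher and 3 lower (median -0.16), which is 8.33% called, against 28.5% over all genes. The counts were 1 and 13 after centring and 42 and 0 against the mean of all 4 floxed groups. Racgap1, a regulator of cytokinesis on chromosome 15, fell by 0.74, and the phosphatase Cdc25c by 0.42. Pttg1, or securin, rose by 0.33. Values of the floxed groups for these genes ranged widely, from 40.02 to 481 for Cdc25c and from 901 to 4245 for Racgap1, and the +/+ arrays of both lay inside.

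Of 7 inhibitors of cyclin-dependent kinases 2 were higher, which is 28.6% called, against 28.5% over all genes. Cdkn1c was described above, and Cdkn2b, which encodes p15, averaged 238 ± 3.25 in +/+ cells and 149 ± 22.6 in control cells (log2 fold change 0.63, adjusted p = 0.00405). Cdkn1a, the p21 gene and a main target of p53, read 3109, 3706 and 3081 in +/+ cells, against 2786, 2919.5 and 2727 in control cells, and its difference just missed the threshold (log2 fold change 0.22 ± 0.082 SE, adjusted p = 0.0512). Its second probe set averaged 1981 ± 84.5 in +/+ cells and 1694 ± 126 in control cells and was called higher (log2 fold change 0.23, adjusted p = 0.0481). Hdac1 KO cells, which had received the same tamoxifen, read 7432, 8638 and 8855. Cdkn1b had a log2 fold change of 0.20 (adjusted p = 0.0593), while Cdkn2a, Cdkn2c and Cdkn2d had adjusted p-values of 0.753, 0.94 and 0.256. Among 19 G1 cyclins, kinases, pocket proteins and E2F factors the genes E2f3 (0.47), Rb1 (0.41), Ccne1 (0.37) and E2f6 (0.32) were higher. In all 6 were higher and 2 lower, which is 42.1% called, against 28.5% over all genes. These counts were 4 and 5 after quantile normalization or centring, 3 and 1 without +/+ replicate 3, and the lower count was 1 without control replicate 2.

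Of 33 p53 targets 6 were higher and 5 lower (median 0.13), which is 33.3% called, against 28.5% over all genes. After centring 5 were higher and 10 lower. Against the mean of all 4 floxed groups 2 were higher and 26 lower. Pmaip1, which encodes the death effector NOXA, averaged 827 ± 64.3 in +/+ cells and 406 ± 100.6 in control cells (log2 fold change 1.03) and Plk3, a stress-activated kinase, 83 ± 5.85 in +/+ cells and 37.4 ± 5.2 in control cells (0.89). Perp, a membrane protein of desmosomes and of p53-dependent death, was at 408, 458 and 413 in +/+ cells, against 1657, 1666 and 1589.9 in control cells (log2 fold change -1.90 ± 0.079 SE, adjusted p = 6.25e-11). Gadd45a, of the growth arrest response, fell by 0.64.

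Immediate early genes are switched on within minutes of a growth or stress signal, without new protein synthesis. Of 28 tested 15 were higher in +/+ cells and 2 lower, which is 60.7% called, against 28.5% over all genes. The median was 0.30, against 0.080 over all genes. Both lower genes lie on chromosome 8. The counts were 13 and 3 after quantile normalization or centring. Against the mean of all 4 floxed groups 11 were higher and 10 lower. Dusp5, a nuclear phosphatase that inactivates the kinase ERK, was at 735, 913 and 929 in +/+ cells, against 112, 141 and 139 in control cells (log2 fold change 2.58 ± 0.15 SE, adjusted p = 2.49e-09). The orphan nuclear receptor Nr4a1 was at 918, 982 and 894 in +/+ cells, against 287, 319 and 363 in control cells (log2 fold change 1.49 ± 0.10 SE, adjusted p = 2.35e-08). The zinc finger factors Egr3 and Egr2 rose by 1.26 and 1.11. All +/+ arrays of Dusp5, Nr4a1 and Egr3 lay above all 12 floxed arrays, by log2 gaps of 1.27, 0.22 and 0.12.

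Many immediate early genes are driven by serum response factor, which binds the CArG box. Windows of RefSeq promoters were searched (GRCm38.p6, 250 bases before to 50 bases after the start, both strands). Of the 22 immediate early genes with a window 4 held a CArG box, against 1.81% of all 27025 genes with a window. Dusp5, Egr2 and Srf, itself the gene of serum response factor, were called higher, and Zfp36 was not called. The promoter stretches of the 3 higher genes are shown because they carry the element beside the start, with 1 match in capitals in each. Dusp5 and Srf hold a second match in lower case within the stretch shown, and Egr2 has a further match, beside another annotated start, that is not shown.
Dusp5, chr19:53529023-53529112, plus strand: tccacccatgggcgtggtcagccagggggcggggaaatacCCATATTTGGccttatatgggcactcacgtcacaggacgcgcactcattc
Egr2, chr10:67537757-67537846, plus strand: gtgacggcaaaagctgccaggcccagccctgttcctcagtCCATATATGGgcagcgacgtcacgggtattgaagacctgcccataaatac
Srf, chr17:46556195-46556284, minus strand: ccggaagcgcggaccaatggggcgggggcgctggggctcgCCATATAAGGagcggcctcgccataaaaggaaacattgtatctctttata
The cyclic AMP response element TGACGTCA was found in 3 of the 22 genes (Dusp1, called higher, and Maff and Btg2, not called). Of all genes with a window 2.03% held it. A match describes letters in the window and is not a measured binding site.

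Cholesterol synthesis genes were higher in +/+ cells in 16 of 20 cases and lower in 0 (80% called, against 28.5% over all genes). Their median was 0.40, and the counts were 12 and 2 after quantile normalization and 11 and 2 after centring. Without +/+ replicate 1 or control replicate 3 the higher count was 10. Tm7sf2, a sterol reductase, had intensities of 163, 148 and 129.7 in +/+ cells, against 57, 60.2 and 45.1 in control cells (log2 fold change 1.21 ± 0.12 SE, adjusted p = 1.04e-06). Sc5d, a sterol desaturase, averaged 4936 ± 91.8 in +/+ cells and 3074 ± 112 in control cells (log2 fold change 0.68) and Nsdhl, a sterol dehydrogenase, 4431 ± 16.8 in +/+ cells and 2957 ± 47.7 in control cells (0.58). Lss, which closes the sterol rings, was only just called (log2 fold change 0.54 ± 0.20 SE, adjusted p = 0.0496), and its call ended in 11 of 19 alternatives. The +/+ arrays of Sc5d were above all 12 floxed arrays. Of 16 members with a promoter window 1 held the sterol regulatory element TCACNCCAC, which 1.44% of all genes with a window held. This member was Hmgcs1, the first committed synthase of the pathway, which rose by 0.29. Its stretch is shown with the element in capitals.
Hmgcs1, chr13:119690174-119690262, plus strand: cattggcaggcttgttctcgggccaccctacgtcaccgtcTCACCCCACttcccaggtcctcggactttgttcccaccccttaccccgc
Of 22 adipogenic and lipid-handling genes 6 were higher (27.3%, against 21.5% over all genes) and 4 lower (5 and 8 after centring), Ebf1 being the lowest. Plin2, a lipid droplet protein, rose by 0.85, the desaturase Scd1 by 0.79 and the fatty acid synthase Fasn by 0.51.

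Lysosomal genes were higher in 20 of 35 cases and lower in 1 (60% called, against 28.5% over all genes). Their median was 0.27, and the counts were 14 and 2 after centring. The cathepsin Ctsh averaged 2619 ± 120.2 in +/+ cells and 1535 ± 27.2 in control cells (log2 fold change 0.76). Naglu, which degrades heparan sulfate, averaged 368 ± 14.2 in +/+ cells and 217 ± 33.9 in control cells (0.73), and the sialidase Neu1 189 ± 21.9 in +/+ cells and 112 ± 10.4 in control cells (0.67). Ctsk, a collagen-degrading cathepsin, rose by 0.76 at low intensity (52.2, 51.4 and 51.4 in +/+ cells, against 23.5, 22.9 and 25.9 in control cells). Against the mean of all 4 floxed groups the list had 2 higher and 14 lower members.

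Antioxidant genes that depend on the factor NRF2 split into opposite extremes, with 6 of 27 higher and 9 lower (median -0.0018). That is 55.6% called, against 28.5% over all genes, and the counts were 3 and 12 after centring. The higher count was 2 without +/+ replicate 1, +/+ replicate 2 or control replicate 3. Mgst1 was described above, and Pir, an iron-binding nuclear protein, read 156, 226 and 207 in +/+ cells, against 35.7, 53.5 and 24.6 in control cells (log2 fold change 2.00 ± 0.17 SE, adjusted p = 2.64e-07). Gsta4, a glutathione transferase that detoxifies lipid aldehydes, was at 80.6, 69.1 and 93.9 in +/+ cells, against 968, 1068 and 1011 in control cells (log2 fold change -3.41 ± 0.12 SE, adjusted p = 4.87e-12), and the quinone reductase Nqo1 was at 178, 277 and 221 in +/+ cells, against 1139, 1222 and 1027 in control cells (log2 fold change -2.26 ± 0.18 SE, adjusted p = 1.81e-07). Nfe2l2, the NRF2 gene, had a log2 fold change of -0.0021 (adjusted p = 0.988). The 3 +/+ arrays of Gsta4 lay below all 12 floxed arrays, by a log2 gap of -1.72, while those of Nqo1 lay within their range of 75.7 to 1809. Among 19 glutathione transferases 4 were higher, including Gstk1 (1.51), and 3 lower, including Gstm2 (-1.26). The share called was 36.8%, against 28.5% over all genes. The antioxidant response core TGACNNNGC was present in 9 of the 21 members with a window. Of all 32851 windows, counted singly rather than per gene, 12.4% held it. A gene can have several windows, so the count of members cannot be set directly against this share.

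Genes of the aryl hydrocarbon receptor also moved both ways. Tiparp, a target that limits the receptor, rose by 0.66 and Ahr by 0.29, whereas Ahrr, its repressor, fell by 1.08, Cyp1a1 by 0.35 and Cyp1b1 by 0.21. Aldh3a1 (0.026) was not called. The brightest probe set of Arnt was not called (0.15), 1 of its other probe sets was called higher (0.36, adjusted p = 0.0286) and the remaining ones were not. Cyp1a1 was dim, at 18.4 ± 3.61 in +/+ cells and 27.9 ± 5.18 in control cells. Ahr lost its call in 9 of 19 alternatives, Cyp1b1 in 5 of 19 and Cyp1a1 in 5 of the 18 that tested it.

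Targets of the stress factor ATF4 and of the unfolded protein response were lower in 10 of 27 cases and higher in 5 (median -0.16). That is 55.6% called, against 28.5% over all genes. After centring 2 were higher and 16 lower. Stc2, a secreted glycoprotein, was at 137, 128 and 126 in +/+ cells, against 352, 367 and 336 in control cells (log2 fold change -1.33 ± 0.11 SE, adjusted p = 2.07e-07), and Chac1, which degrades glutathione, averaged 1014 ± 104 in +/+ cells and 1806 ± 159 in control cells (log2 fold change -0.82). Vldlr, a lipoprotein receptor, fell by 0.67. Dnajb9, a chaperone of the endoplasmic reticulum, rose by 0.58.

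As tamoxifen acts on estrogen receptors, classic estrogen response genes were listed. Of 22 tested 4 were higher and 6 lower (median -0.016), which is 45.5% called, against 28.5% over all genes. After centring 3 were higher and 8 lower. The receptor gene Esr1 had intensities of 195, 125 and 218 in +/+ cells, against 261, 276 and 259.9 in control cells (log2 fold change -0.56 ± 0.14 SE, adjusted p = 0.0067), and its call was lost when probe sets were averaged (-0.21, adjusted p = 0.0535). Ccn5, also called Wisp2, averaged 3252 ± 289.8 in +/+ cells and 1334 ± 361 in control cells (log2 fold change 1.31), while Slc7a5, an amino acid transporter, fell by 0.55. The full palindrome of the estrogen response element was found in 0 of the 17 genes with a window and in 0.074% of all genes with a window. Hdac1 KO cells had also received tamoxifen, and there Ccn5 had a log2 difference of 0.83, Esr1 of -0.72 and Stc2 of -0.94 (+/+ cells minus KO cells). That of Slc7a5 was -0.18 and was not called (adjusted p = 0.0692). These values share the +/+ arrays.

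The extracellular matrix differed gene by gene. Of 28 elastic fibre and matricellular genes 16 were higher in +/+ cells and 4 lower (71.4% called, against 28.5% over all genes). Their median was 0.21. The counts were 12 and 6 after centring and 9 and 9 against the mean of all 4 floxed groups. Mfap5, a microfibril protein, was at 100.3, 129 and 104 in +/+ cells, against 20.04, 29.8 and 30.2 in control cells (log2 fold change 1.58 ± 0.12 SE, adjusted p = 5.74e-08), and Tnc, the matrix glycoprotein tenascin C, averaged 9782 ± 508 in +/+ cells and 5043 ± 331 in control cells (log2 fold change 0.95). Postn, or periostin, had intensities of 5182, 4132 and 4553 in +/+ cells, against 14169, 10868 and 11273 in control cells (log2 fold change -1.38 ± 0.10 SE, adjusted p = 6.25e-08) and was below all 12 floxed arrays in each +/+ array.

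Small leucine-rich proteoglycans, which bind collagen fibrils and growth factors, were higher in 3 and lower in 3 of 11 cases. The share called was 54.5%, against 28.5% over all genes. Lum, or lumican, rose by 1.14. Ogn, or osteoglycin, was at 3408, 2858 and 2754 in +/+ cells, against 10813, 9628 and 8842 in control cells (log2 fold change -1.70 ± 0.09 SE, adjusted p = 1.24e-09), Omd averaged 134 ± 12.8 in +/+ cells and 542 ± 51.9 in control cells (log2 fold change -1.90) and Aspn 1186 ± 137 in +/+ cells and 3759 ± 303 in control cells (-1.65). The +/+ arrays of Ogn were below all 12 floxed arrays, and those of Omd and Aspn were not. Of 27 collagens 5 were higher and 5 lower (37% called, against 28.5% over all genes). The basement membrane chains Col4a1 and Col4a2 rose by 0.67 and 0.65, and Col18a1 and Col8a2 were at -0.88 and -0.71.

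Of 19 matrix proteases and inhibitors 7 were higher and 3 lower (52.6% called, against 28.5% over all genes). Adamts12 rose by 1.04, the urokinase receptor gene Plaur by 0.95, Mmp16 by 0.93 and the inhibitor Timp1 by 0.68. Cartilage and bone genes were higher in 7 of 20 cases and lower in 2 (45% called, against 28.5% over all genes). Acan, the main proteoglycan of cartilage, had intensities of 1124, 1518 and 1160.5 in +/+ cells, against 292, 379 and 374 in control cells (log2 fold change 1.81 ± 0.14 SE, adjusted p = 7.16e-08). Cnmd, a cartilage membrane protein, averaged 78.7 ± 10.9 in +/+ cells and 19.3 ± 1.93 in control cells (log2 fold change 1.42), and Sox9, the master factor of cartilage, 852 ± 93.1 in +/+ cells and 409.6 ± 17.4 in control cells (1.02). Pth1r, the receptor of parathyroid hormone, rose by 0.996. The +/+ arrays of Sox9 and Cnmd were above all 12 floxed arrays, whereas Acan spanned 85.6 to 1916 over them.

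Of 13 serpins 4 were higher and 2 lower (46.2% called, against 28.5% over all genes). Serpinb9b rose by 1.92, Serpinb6b by 0.79 and Serpinb9, an inhibitor of granzyme B, by 0.39, while Serpinb1a fell by 0.86. The genes of this serpin cluster spanned wide ranges over the floxed arrays, such as 39.4 to 1533 for Serpinb9b. Of 9 S100 genes 0 were higher and 3 lower (33.3% called, against 28.5% over all genes): S100a4 (-0.43), S100a13 (-0.28) and S100a3 (-0.27). S100a3 was dim, at 15.2 ± 2.57 in +/+ cells and 21.5 ± 1.12 in control cells, and S100a4 was at 0.74 against the mean of all 4 floxed groups. Without +/+ replicate 3, control replicate 2 or control replicate 3 the lower count was 1. Integrins, cadherins and related adhesion molecules were higher and lower in 9 of 32 cases each (4 and 12 after centring). The share called was 56.2%, against 28.5% over all genes. The higher count was 5 without +/+ replicate 1 or control replicate 1 and 4 without +/+ replicate 2. Itga8, a chain of nephronectin-binding integrin, averaged 1125 ± 111 in +/+ cells and 345 ± 37.6 in control cells (log2 fold change 1.66). Vcam1, a ligand of leukocyte integrins, fell by 1.06, the laminin-binding chain Itga6 by 0.84 and the cadherin Cdh6 by 0.83.

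Secreted signals of fibroblasts diverged. Of 23 chemokines and cytokines 5 were higher and 5 lower (median 0.0007), which is 43.5% called, against 28.5% over all genes. Besides Cxcl14, Il11, a cytokine of the interleukin 6 family, was at 1109, 1017 and 898 in +/+ cells, against 179, 254 and 305 in control cells (log2 fold change 1.99 ± 0.15 SE, adjusted p = 6.77e-08). Cxcl1, which attracts neutrophils, was at 375, 223 and 155 in +/+ cells, against 3173, 2554 and 2587 in control cells (log2 fold change -3.46 ± 0.23 SE, adjusted p = 1.72e-08), and Ccl7, which attracts monocytes, at 243, 232 and 193 in +/+ cells, against 1103, 1151 and 1243 in control cells (log2 fold change -2.31 ± 0.18 SE, adjusted p = 1.03e-07). For Cxcl1 all 3 +/+ arrays were below all 12 floxed arrays. Of 12 complement and C1q-related genes Cd59a alone was higher and 4 were lower (41.7% called, against 28.5% over all genes). The complement gene C1ra was at -0.41, and the C1q-related genes C1qtnf3 and C1qtnf6 were at -1.20 and -0.64.

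Genes of MHC class I and antigen presentation were higher in 9 of 13 cases and lower in 0 (69.2% called, against 28.5% over all genes). Their median was 0.38, and the counts were 7 and 2 after quantile normalization and 7 and 1 after centring. Against the mean of all 4 floxed groups 2 were higher and 4 lower. Psmb8, an immunoproteasome subunit, was at 196, 170.4 and 149 in +/+ cells, against 49.6, 51.9 and 48.7 in control cells (log2 fold change 1.502 ± 0.10 SE, adjusted p = 1.98e-08). The class I gene H2-D1 averaged 3183 ± 84.2 in +/+ cells and 1841 ± 56 in control cells (log2 fold change 0.78), the peptide transporter Tap2 rose by 0.83 and their regulator Nlrc5 by 0.91. Of 23 interferon-stimulated genes 9 were higher and 2 lower (47.8% called, against 28.5% over all genes). After centring 5 were higher and 3 lower. The higher count was 4 without +/+ replicate 1 or 2 and 5 without control replicate 2 or 3. Against the mean of all 4 floxed groups 2 interferon-stimulated genes were higher and 5 lower. Ifi27 averaged 2923 ± 99.1 in +/+ cells and 1362 ± 68.7 in control cells (1.09) and Bst2, or tetherin, 328 ± 23 in +/+ cells and 138 ± 6.42 in control cells (1.15), while Ifit2 fell by 0.70. Near-identical class I genes can share probes, so H2-D1 is uncertain as a single gene. None of Psmb8, H2-D1, Tap2, Ifi27 and Bst2 separated +/+ cells from all floxed arrays.

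The shares called in the Wnt, TGF-beta and BMP, and Notch pathways were 22.9%, 33.3% and 31.2%, against 28.5% over all genes. Of 35 Wnt pathway genes 5 were higher and 3 lower (3 and 10 after centring). Besides Sfrp1, Rspo3, an enhancer of Wnt signals, was at 107, 94.9 and 65.5 in +/+ cells, against 19.4, 19.1 and 18.2 in control cells (log2 fold change 1.57 ± 0.13 SE, adjusted p = 2.07e-07), the ligand Wnt5b rose by 1.34 and the receptor Fzd4 fell by 0.76. In the TGF-beta and BMP pathway 8 of 33 genes were higher and 3 lower (4 and 7 after centring; 5, 4 and 5 higher without +/+ replicate 1, +/+ replicate 2 or control replicate 2). Inhba, a subunit of activin, averaged 5360.3 ± 462 in +/+ cells and 2551 ± 238 in control cells (log2 fold change 1.07), while the co-receptor Tgfbr3 and the BMP antagonists Grem1 and Nog were at -0.999, -0.84 and -0.75. Of 16 Notch pathway genes Hes1 (0.46) and Hey2 (0.34) were higher and 3 lower, among them the ligand Dner (-1.12) and the DNA-binding factor Rbpj (-0.36); after centring 0 were higher and 4 lower.

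Markers of fibroblasts and of other cell types were compared in the same way. Of 17 fibroblast markers 5 were higher and 2 lower (41.2% called, against 28.5% over all genes). Thy1, a surface glycoprotein of fibroblasts, had intensities of 1299, 1239 and 1187 in +/+ cells, against 291, 271 and 279 in control cells (log2 fold change 2.08 ± 0.11 SE, adjusted p = 1.55e-09), with Pdgfra at 0.72, Fbln2 at 0.72 and S100a4 at -0.43. Neuronal and glial markers were higher in 5 of 13 cases and lower in 2, with the same counts after centring. That is 53.8% called, against 28.5% over all genes. Uchl1, a deubiquitinase of neurons, was at 473, 593 and 529.7 in +/+ cells, against 112, 112 and 113 in control cells (log2 fold change 2.09 ± 0.12 SE, adjusted p = 2.64e-09). Gap43 of growth cones averaged 1018 ± 24.5 in +/+ cells and 282 ± 7.3 in control cells (log2 fold change 1.80) and Stmn2, a regulator of microtubules in axons, 3029 ± 209 in +/+ cells and 1169 ± 135 in control cells (1.37). Nes, or nestin, fell by 1.03, and Tubb3 read 356 to 378 in +/+ cells and 504 to 545 in control cells. Stmn2 averaged 3549 in Kd cells and 5209 in KO/Kd cells, and Uchl1 averaged 1557 in KO/Kd cells. Neither gene set the +/+ cells above the floxed groups, while the +/+ arrays of Gap43 lay above all floxed arrays. The summed intensity of the 21 measured neuronal and glial markers was 8775 to 9442 in +/+ cells and 5137 to 5548 in control cells. Stmn2 alone read 2805 to 3220 in +/+ cells and 1041 to 1310 in control cells. Dcx, Gfap, Snap25 and Elavl3 were too dim to be tested.

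Macrophage, endothelial and germ cell markers gave 0 calls of 6, 4 and 3 tested in limma, with 2, 0 and 1 genes at an unadjusted p under 0.05, and Ptprc, Itgam, Pecam1, Cdh5, Ddx4 and Dazl did not pass the filter on dim values. Their summed intensities were 317 to 382, 281 to 323 and 236 to 253 in +/+ cells, against 280 to 316, 269 to 293 and 218 to 236 in control cells. Marker sums were not scaled, and the mean intensity of whole arrays was also higher in +/+ cells. Within the macrophage sum Csf1r alone read 97.9 to 139 in +/+ cells and 71.5 to 97.6 in control cells. Of 14 epithelial markers 2 were higher, Pkp1 (1.38) and Krt19 (0.68), and 3 lower, among them Perp and Epcam (-0.35). The share called was 35.7%, against 28.5% over all genes. The summed intensity was 3237 to 3611 in +/+ cells and 4188 to 4672 in control cells. Perp alone read 408 to 458 in +/+ cells and 1590 to 1666 in control cells, so the lower sum rests mostly on this gene. Of 11 skeletal muscle markers Acta1 alone was called, at -0.80. The summed intensities were 1490 to 1539 in +/+ cells and 2133 to 2545 in control cells. Acta1 made up most of both, at 1147 to 1191 in +/+ cells and 1814 to 2235 in control cells. Of 8 pericyte markers Mcam (0.87) and Cspg4 (0.26) were higher (25% called, against 28.5% over all genes). Of 25 contractile genes 6 were higher and 2 lower (3 and 5 after centring), with Ankrd1 at 0.68, Myh10 at 0.56 and Actg2 at -0.96. The share called was 32%, against 28.5% over all genes. The part of other cell types in any of the differences was not tested.

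Of the Bex genes, small X-linked genes of neural tissues, Bex2 and Bex3 were called at 0.21 each and Bex1 (0.40) and Bex4 (0.0064) were not, and after quantile normalization or centring 0 of the 4 were called. Genes known to vary between inbred mouse strains (Nnt, Glo1, Wdfy1 and H2-Ea) gave 0 calls of 4 in limma, and 0 at an unadjusted p under 0.05, with log2 fold changes of -0.059, 0.10, 0.11 and 0.16; after centring 1 was lower. The sex-linked genes gave 0 calls of 3 tested, 0 at an unadjusted p under 0.05, and 1 lower after centring.

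**Figure D5:**
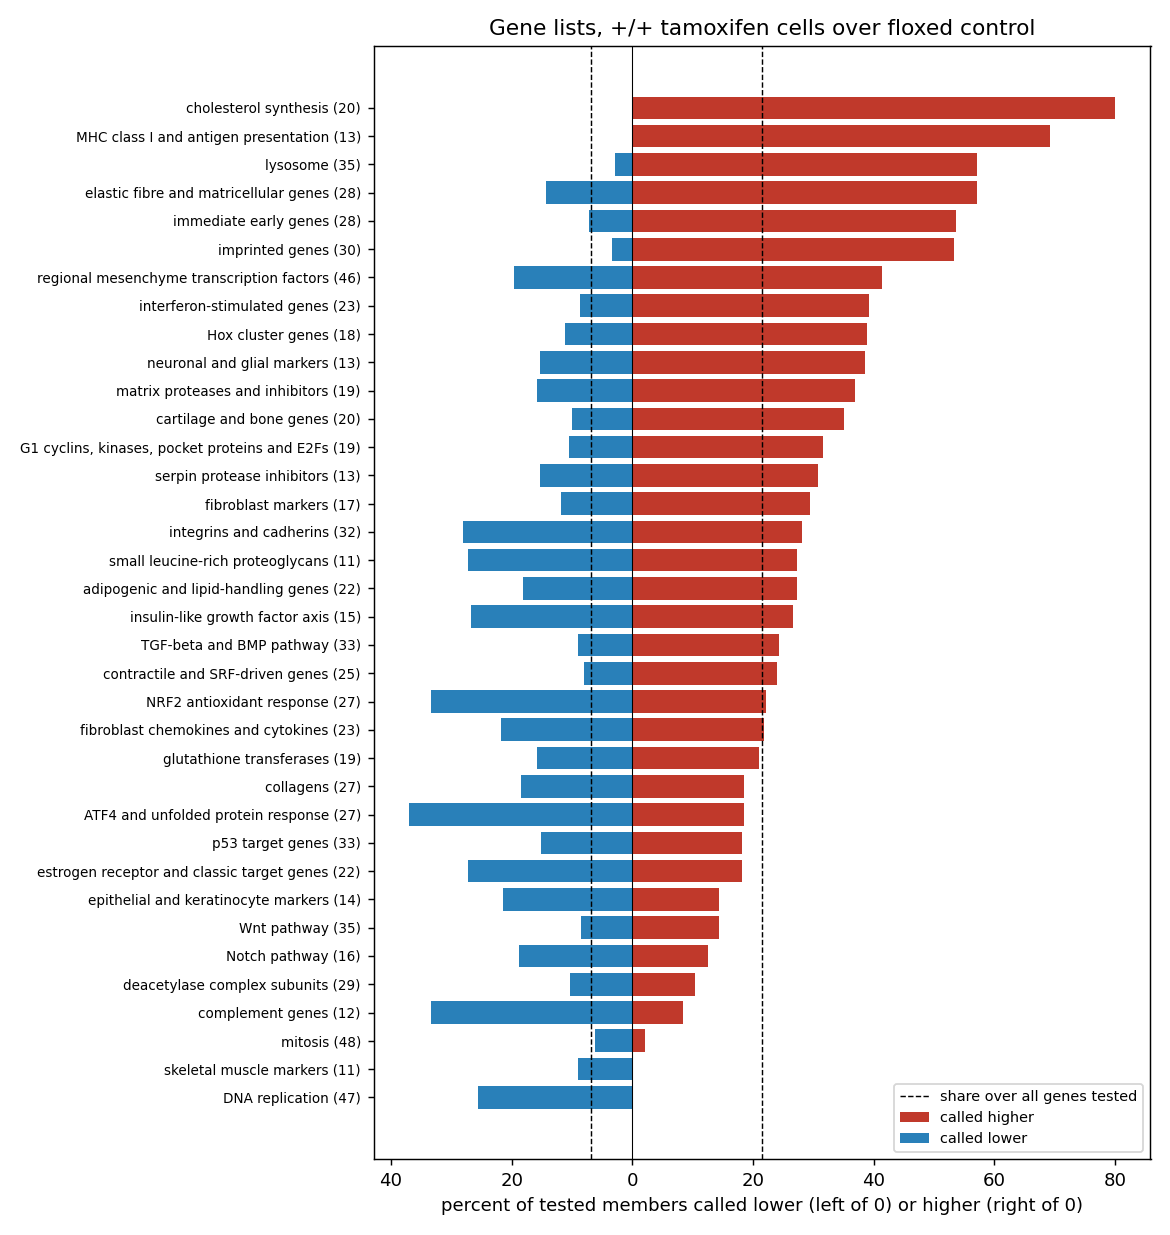
Percent of the tested members of each gene list that were called higher in +/+ cells (right of 0) or lower (left of 0), for lists with at least 10 tested members, whose number stands in brackets. Dashed lines mark the 21.5% higher and 6.93% lower over all genes. The bars of Hox genes and regional transcription factors include genes that passed the filter on dim values only through the +/+ arrays. Cholesterol synthesis has the longest bar to the right, and ATF4 and unfolded protein response the longest to the left.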

How the data were processed

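RNA of primary male fibroblasts, 15 samples in all, was labelled by in vitro transcription for Affymetrix Mouse 430v2 arrays, per the labels' protocols. The authors deposited linear intensities for 45037 probe sets; their summarisation, background correction and scaling are not given in the sources used here. An annotation table gave 1 symbol to 34945 probe sets, several to 932 and none to 9160; the last kinds were left out.

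Values were transformed to log2(intensity + 16), so that changes of dim genes come out too small. A probe set was kept if on 3 or more arrays it exceeded the 40th percentile of the array, and the brightest stood for its gene, leaving 13382 of 18193 symbols. The model (limma 3.58.1, R 4.3.3) had a coefficient for each of the 5 groups and used all 15 arrays. Calls used a Benjamini-Hochberg adjusted p under 0.05 over all genes. Precision is limited by the number of arrays, with a median standard error of 0.087. All adjusted p-values printed are limma's.

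The comparison and the 48 gene lists were chosen with earlier results of these data known. Of 1127 listed genes 884 were tested. Lists are described by their counts and median, with no test, and list members that did not pass the filter have no call. Named genes were the 15 highest and 15 lowest calls without overlap between the groups, up to 4 called members per list with the largest change (all tested members of lists of 10 or fewer), the 8 widest gaps above and below the floxed range, class I deacetylases, kinase inhibitors and sex-linked genes. Symbols of clones and gene models were not eligible. Some Hox genes, Hand2, Pitx1, Fap, Vim, Col1a2, Tubb3, Csf1r, Hmgcs1, Dusp1, Srf, Zfp36, Maff, Btg2 and genes given as absent from the test were named outside this rule after their values were seen. No pair of arrays held identical values. The procedure was tested on simulated data.

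Alternatives were eBayes with a trend and robust settings, only the 6 compared arrays, the replicate number as a block, 2 other filters, averaged probe sets, quantile normalization, centring, leaving out probe sets whose names end in _x_at or _s_at, arrayWeights, a pseudocount of 1, 2 other references and each of the 6 arrays left out.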

Additional observations from a re-analysis of the deposited data

How the results depend on the processing

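Over the 19 alternatives 113 of the 170 called genes named here kept direction and call in every one that tested them. Among these Hoxa11 and Hoxc10 were tested in only 15 alternatives and Nog in 18. Hoxa9, Hoxa11 and Hoxc10 passed the main filter only through the +/+ arrays, so their kept calls add no support. The call was lost in at least 1 alternative for 48 genes, and 20 turned round in at least 1. Lower calls were 2010 after quantile normalization, and 1640 higher and 2145 lower genes were called after centring. The replicate block gave 2652 higher and 893 lower genes. Same-numbered +/+ and control arrays share only a number: their deviations correlated at 0.14, -0.011 and -0.0025, and 2 of the 6 arrays correlated best with their own number. arrayWeights gave KO replicate 2 a weight near 0 and called 32 genes higher on chromosome 15, against 18. With the mean of all 4 floxed groups as reference 2393 genes were lower, 92 higher by 2-fold or more and 183 lower by as much. Leaving out each array in turn gave 1982 to 2612 higher and 725 to 823 lower genes, 162 to 187 and 99 to 115 by 2-fold or more, 568 to 963 genes above and 572 to 697 below all floxed arrays, and 12 to 19 higher and 200 to 220 lower genes on chromosome 15. With the mean of control and Kd cells as reference C1qtnf3 was at 0.085, Hey2 at -0.0063 and Serpinb9 at -0.12. With the mean of all 4 floxed groups the turned values were Bex2 -1.22, Bex3 -0.12, Cdc25b 0.20, Cdc25c 0.55, Cdkn2b -0.0702, Ctsk -0.12, Hdac6 -0.18, Hey2 -0.10, Mcam -0.38, Mcm2 0.14, Mcm5 0.11, Neu1 -0.27, Pmaip1 -0.45, Pttg1 -0.036, Rb1 -0.018, S100a4 0.74, Serpinb6b -0.75, Serpinb9 -0.71 and Serpinb9b -0.19. These references include cells that differ from control cells in deacetylase status, micro-RNA or tamoxifen, and no cause of the turned values was tested. Calls ended most often for Lss, Bex2, Cdc25b, Ahr and Cspg4, in 9 to 11 alternatives. Intensities near the array medians set no true zero, so fold changes against them depend on the added 16. Of 119 further probe sets of called named genes 77 were called in the same direction, 36 had the same direction without a call and 6 the opposite without a call. Of 25 further probe sets of named genes that were not called 2, of Arnt and Cdkn1a, were called higher.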

Other observations

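Several genes on none of the lists also stood at least 1 log2 unit beyond all 12 floxed arrays; they were picked after their values were seen. Mlkl, the membrane-permeabilising effector that the kinase Ripk3 activates in necroptosis, was at 199, 188 and 211 in +/+ cells, against 48.8, 50.8 and 47.9 in control cells (log2 fold change 1.72 ± 0.10 SE, adjusted p = 4.63e-09). Unlike Mlkl, Ripk3 did not clear the floxed range, which spanned 85.7 to 1668. Tnfsf11, which encodes the osteoclast factor RANKL, was at 183, 107 and 109 in +/+ cells, against 16.9, 17.5 and 13.6 in control cells (log2 fold change 2.18 ± 0.16 SE, adjusted p = 5.32e-08). Lipg, or endothelial lipase, averaged 871 ± 109 in +/+ cells and 155 ± 15.1 in control cells (log2 fold change 2.37), and Adgrl4, an adhesion receptor of endothelium, 87.6 ± 5.06 in +/+ cells and 15.8 ± 0.999 in control cells (1.70). Adgrl4 passed the filter on dim values only through the +/+ arrays.

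On the lower side the innate immune receptor Tlr2 was at 164, 154 and 182 in +/+ cells, against 732, 753 and 786 in control cells (log2 fold change -2.08 ± 0.10 SE, adjusted p = 5.7e-10). Tmem119, known from bone-forming cells and microglia, averaged 50.4 ± 0.993 in +/+ cells and 289.8 ± 17.8 in control cells (log2 fold change -2.20). G0s2, an inhibitor of lipolysis, averaged 39.8 ± 17.9 in +/+ cells and 242 ± 17.5 in control cells (-2.25), and Ntn4, a netrin of basement membranes, 50.1 ± 1.22 in +/+ cells and 187 ± 6.46 in control cells (-1.62). The tetraspanin Tspan18 averaged 62.2 ± 12 in +/+ cells and 338 ± 12.8 in control cells (-2.19).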
